A study of Mus musculus with 6 samples.

Results

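The paraoxonases Pon1, Pon2 and Pon3 are 3 genes side by side on mouse chromosome 6, taken by name from the 53546 rows of a table of RNA-seq read counts per gene. All 6 libraries are from C57BL/6 mice. Their labelled tissue is the intervertebral disc, the pad of cartilage and gel between vertebrae; 3 are marked wild type and 3 intervertebral disc degeneration. The labels give neither the age of the mice, nor how degeneration was brought about, nor whether each library came from its own animal, so the spread behind each p-value is that of these libraries and may be technical. No allele, agent or treatment is named for either group. Values of a group are listed below in the order of replicates 1 to 3.

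Paraoxonases are calcium-dependent enzymes that open lactone rings, and the family is named for the hydrolysis of paraoxon, the active form of the insecticide parathion. Pon1 is best known as a liver product that circulates on high-density lipoprotein (HDL) and hydrolyses organophosphates and oxidised lipids. Pon3, also made in the liver, is found on HDL and inside cells, whereas Pon2 stays in the membranes of many kinds of cells and is studied for its part in limiting oxidative stress.

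All 3 rows lay wholly on exons of their own gene when read as GRCm38 positions (GENCODE M21), which was so for at least 90% of the length of only 1740 of the 53546 rows. The genes are on the minus strand: Pon1 at chromosome 6, 5168090 to 5193946 (ENSMUSG00000002588.13), Pon3 at 5220852 to 5256286 (ENSMUSG00000029759.9) and Pon2 at 5264147 to 5298455 (ENSMUSG00000032667.17). The row of Pon1 covered 2898 exon bases, that of Pon3 3385 and that of Pon2 7339, introns retained in non-coding transcripts included. The exons of protein-coding transcripts alone cover 1513, 1837 and 2409 bases, so 4930 bases of the Pon2 row are found only in its other transcripts. In addition, 680 bases of the Pon2 row are shared with Gm44424, a gene model on the opposite strand whose own row held 14 to 25 counts in a library. Reads were counted without regard to strand, so reads of this stretch cannot be assigned to either gene.

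The stretches of 250 bases before each RefSeq start site differ in composition, and their parts ahead of the GENCODE start are shown. They come from RefSeq (GRCm38.p6, minus strand, written 5′ to 3′), and capitals mark matches to a GC box (GGGCGG) or a CCAAT box (CCAAT) on either strand, which do not overlap here. GENCODE places the start of Pon2 115 bases, and that of Pon3 53 bases, upstream of the RefSeq start, and that of Pon1 at the same base.
Pon1, chr6:5193947-5194196: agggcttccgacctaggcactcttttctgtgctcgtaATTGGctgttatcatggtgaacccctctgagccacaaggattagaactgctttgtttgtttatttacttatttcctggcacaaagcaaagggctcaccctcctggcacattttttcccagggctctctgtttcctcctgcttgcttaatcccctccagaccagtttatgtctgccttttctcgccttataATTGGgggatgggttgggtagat
Pon3, chr6:5256287-5256483: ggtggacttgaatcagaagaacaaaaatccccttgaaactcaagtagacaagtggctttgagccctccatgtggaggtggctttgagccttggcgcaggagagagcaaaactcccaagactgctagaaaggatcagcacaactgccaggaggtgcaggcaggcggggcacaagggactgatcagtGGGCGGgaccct
Pon2, chr6:5298456-5298590: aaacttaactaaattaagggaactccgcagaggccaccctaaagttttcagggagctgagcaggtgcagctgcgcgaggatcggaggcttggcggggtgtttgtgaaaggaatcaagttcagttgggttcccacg
Over its 250 bases the Pon2 stretch had 65.6% G and C with 24 CpG dinucleotides, the Pon3 stretch 56.8% with 6, and the Pon1 stretch 47.6% with 3. The median over 32851 such stretches in the genome was 52.4% with 6 CpG dinucleotides, and 88.0% of them had fewer CpG than that of Pon2. A GC box was found 3 times before the RefSeq start of Pon2 and 1 time before that of Pon3, and 32.7% of all stretches hold at least 1. The 3 of Pon2, at -79, -47 and -17, lie after its GENCODE start, inside the transcript by that annotation, and are not in the letters shown. The 1 of Pon3, at -65, lies ahead of both starts. Pon1 held 2 matches to the CCAAT box, both on the other strand, a motif present in 33.9% of all stretches. No TATAAA was found in the 3 stretches, and 12.4% of all stretches hold it. These matches describe letters and were not tested as binding sites. Whether the composition of these stretches bears on the read counts of the 3 genes was not tested.

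The 3 coding sequences bear on whether reads of 1 member could be counted for another. Over the aligned coding bases Pon1 and Pon2 were 66.3% identical, Pon2 and Pon3 65.8% and Pon1 and Pon3 62.5%. The longest run of identical bases shared by any transcripts of Pon1 and Pon2 was 23 bases long, and it lies in the coding sequence of both, from base 610 of Pon1 and base 607 of Pon2. For Pon2 and Pon3 the longest run had 14 bases. Both are shown here, since a read longer than such a run cannot match both members without a mismatch.
Shared by Pon1 and Pon2: AATGTTGTTTACTACAGTCCAGA
Shared by Pon2 and Pon3: AGTGTGAATGACAT

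The library totals were 3119215 to 4009562 counts, so 3 counts, taken here as the floor of detection, correspond to 0.748 to 0.962 CPM (counts per 1000000 counts of a library). The libraries did not follow their labels as 2 sets of 3. Across rows, as a description, log2(CPM + 1) of degeneration 1 had a Pearson's r of 0.963 to 0.977 with the wild type libraries. With degeneration 2 and 3 its r was 0.686 to 0.688. For most rows the name did not match the gene at the row's position, so genes other than the paraoxonases were located by position unless their own exons lay under the row. Of 12 disc and cartilage markers 6 could be located by position, and their summed level was 22.0 to 42.6 CPM in all 6 libraries. The highest of them was Sox5, at 10.1 to 29.5 CPM. Acan had 2, 1 and 0 counts in the wild type libraries and 0 in each of degeneration. Rows located by position can cover few exon bases of a gene, here 242 for Sox5 and 1158 for Acan. Their counts need not measure the whole gene, and the marker sums were not divided by these lengths. The 8 located of 13 heart muscle markers summed to 38702 to 41832 CPM in 4 libraries (every wild type and degeneration 1), and to only 52.4 and 51.0 CPM in degeneration 2 and 3. The 6 located of 12 kidney tubule markers summed to 33.3 to 49.1 CPM in the same 4 libraries, against 10374 and 8252 CPM in the remaining pair. Fold changes are therefore given with and without degeneration 1, and the part of this difference in the paraoxonase values was not tested.

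Pon1, the serum member of the family, was at or under the floor of detection in every library. The wild type libraries held 0, 3 and 0 reads of Pon1, and the degeneration libraries 1, 1 and 2. Over all 20650499 counts these 7 reads correspond to 0.339 CPM, with an exact Poisson 95% interval of 0.136 to 0.698 CPM that covers counting error only. No library stood apart. Pon1 had too few counts to be kept by the filter of the edgeR test. Fits that kept it gave no call (edgeR with no filter, adjusted p = 0.942), and no fold is given, since both groups were at or under the floor.

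Markers of the hepatocyte, the cell type best known for Pon1, were also low in most libraries. Of 12 hepatocyte markers 4 were located (Cyp2e1, Ttr, Trf and Cps1). Their sum was 1.96 to 5.98 CPM in every wild type library and degeneration 1. It was 178 and 114 CPM in degeneration 2 and 3, of which Cyp2e1, a cytochrome P450 enzyme, made up 139 and 89.1 CPM. Cps1, the urea cycle enzyme of liver mitochondria, had no count in 4 libraries and at most 0.315 CPM in the others. Only 194 of its exon bases were located, so a low count there does not show that the gene was off. Albumin and the apolipoproteins Apoa1 and Apob were not located and are not analysed here.

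**Figure D1:**
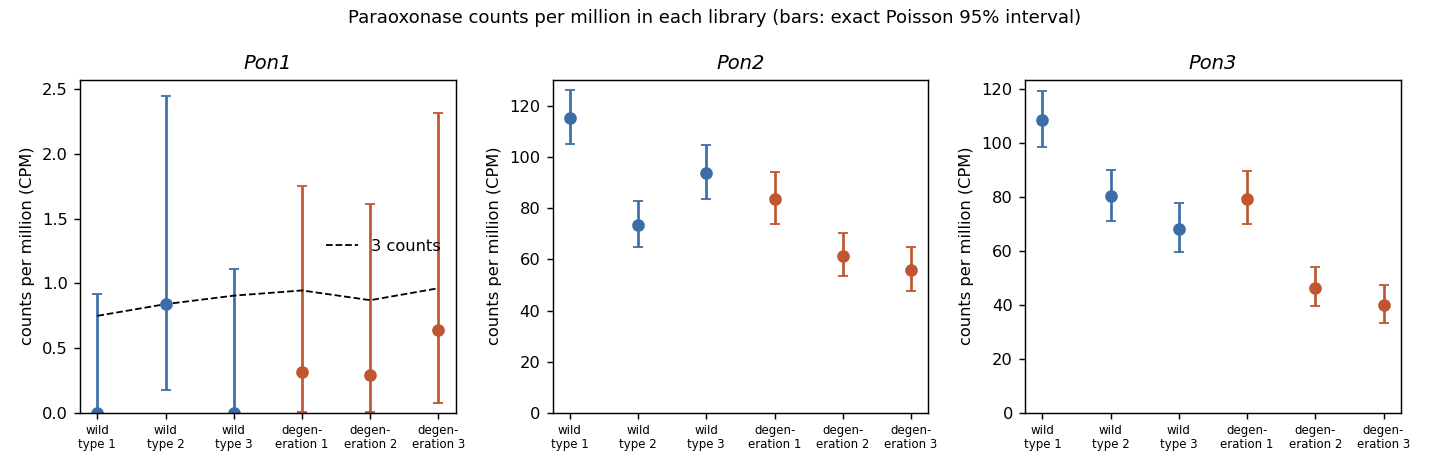
CPM (y axis) of Pon1, Pon2 and Pon3 in each library (x axis; blue, wild type; orange, degeneration), with exact Poisson 95% intervals for counting error; the dashed line in the Pon1 panel marks 3 counts. Pon1 stays at or under 0.839 CPM, and for Pon2 and Pon3 degeneration 1 lies within the wild type range while degeneration 2 and 3 lie below it.

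Pon2, the membrane-bound member, was read in every library. The wild type libraries gave 115, 73.5 and 93.7 CPM, from 463, 263 and 311 reads. Those of degeneration gave 83.8, 61.4 and 55.8 CPM, from 266, 212 and 174 reads. Degeneration 1 lay inside the range of the wild type libraries and degeneration 2 and 3 lay below all of them, so the groups overlapped. In these bulk libraries, fewer cells of a type and less RNA per cell cannot be told apart. The heart and kidney marker sums of degeneration 2 and 3 also differed from the other libraries, as given above. Their part in the Pon2 level was not tested. The means were 94.3 ± 21.0 CPM for wild type against 67.0 ± 14.8 CPM for degeneration (SD, n = 3 each). In the edgeR quasi-likelihood test over all 14967 rows, with TMM scaling, the log2 fold change of Pon2 was -0.65 ± 0.32 (SE), with an adjusted p of 0.332 (unadjusted 0.0866).

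Pon3, the member shared between HDL and cells, followed the same order of groups with a similar spread. Its wild type levels were 108, 80.2 and 68.1 CPM, from 435, 287 and 226 reads. Its levels in degeneration were 79.3, 46.4 and 39.8 CPM, from 252, 160 and 124 reads. Again degeneration 1 lay inside the wild type range and degeneration 2 and 3 below it. The means were 85.6 ± 20.7 CPM and 55.1 ± 21.2 CPM (SD, n = 3 each). In the edgeR test the log2 fold change of Pon3 was -0.77 ± 0.41 (SE), with an adjusted p of 0.361 (unadjusted 0.112). Within wild type, Pon2 and Pon3 were both highest in wild type 1, and the lowest library was wild type 2 for Pon2 and wild type 3 for Pon3.

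Neither gene passed the threshold of 0.05 with all 6 libraries, where 0% of the 14967 rows passed and 17.3% had an unadjusted p under 0.05. By DESeq2 5.54% of 17476 rows passed, 4.92% with a higher level in degeneration and 0.629% with a lower one, and neither Pon2 nor Pon3 was among them (adjusted p of 0.374 and 0.406). On the scale of the test the levels were 124, 84.3 and 104 against 97.8, 53.8 and 48.1 TMM-scaled CPM for Pon2. For Pon3 they were 117, 91.9 and 75.8 against 92.7, 40.6 and 34.3 TMM-scaled CPM. The wider gap of degeneration 2 and 3 on this scale reflects their scaling factors of 1.234 and 1.248, against 0.864 to 0.940 in the other 4 libraries.

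Without degeneration 1 both genes were lower in degeneration. Their log2 fold changes were -1.10 ± 0.18 for Pon2 (SE, edgeR, adjusted p = 0.00025), and -1.41 ± 0.20 for Pon3 (edgeR, adjusted p = 7.1e-05). The libraries of that fit split by heart and kidney marker sums exactly as they do by label. Degeneration and marker content therefore cannot be told apart in it. In that fit 50.4% of the 17272 rows passed, 24.5% as lower in degeneration, so about as many rows were called as not. When scaled by library totals alone, the same comparison gave -0.68 ± 0.19 for Pon2 and -0.99 ± 0.21 for Pon3 (adjusted p of 0.0081 and 0.0011, edgeR), while the median of all rows shifted to 0.45. With all 6 libraries that scaling moved the median of all rows to 0.29 and gave -0.44 ± 0.25 for Pon2 and -0.59 ± 0.31 for Pon3. Relative to the median row these are differences of -0.73 and -0.88. In the fit with 6 libraries 17.7% of all rows had a lower log2 fold change than Pon2, and 14.6% a lower one than Pon3.

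**Figure D2:**
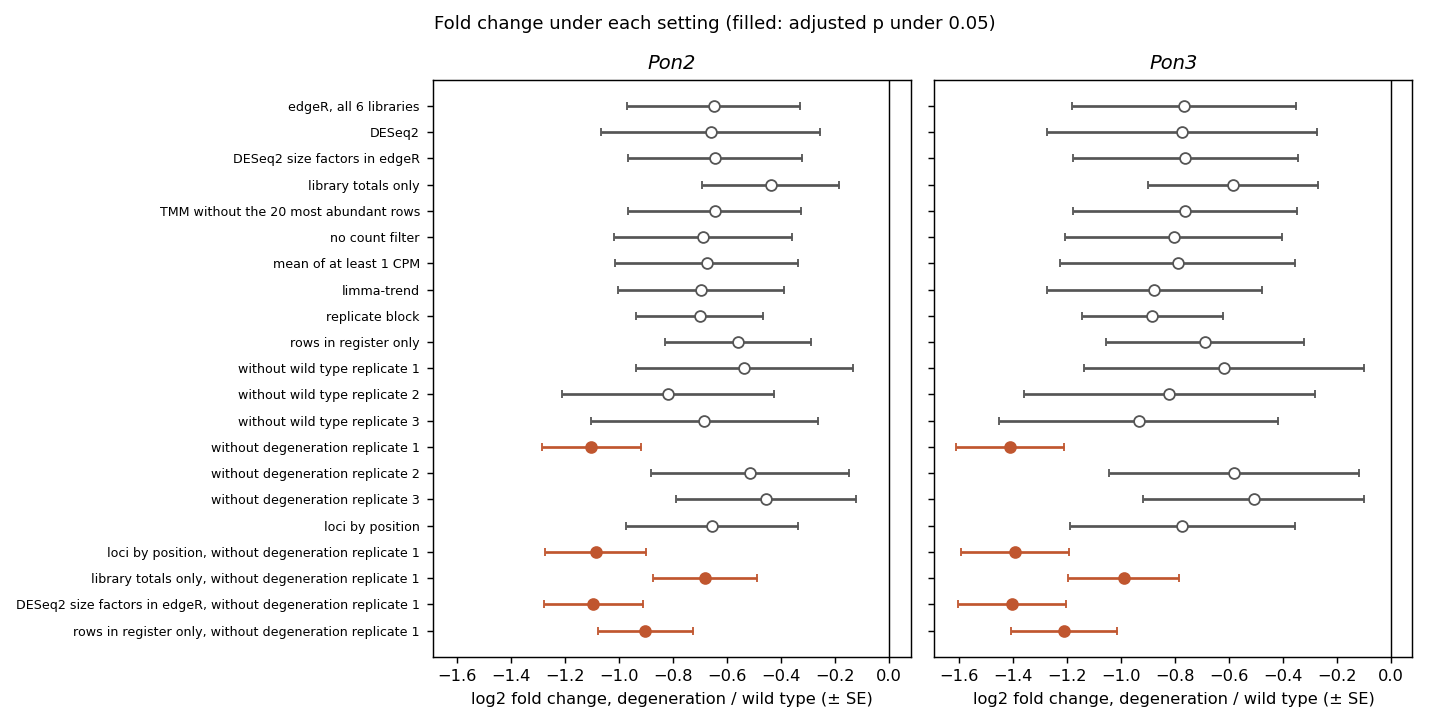
Log2 fold change of Pon2 and Pon3 (x axis, degeneration over wild type, with the SE as bars) under each setting of the test (y axis); filled orange points have an adjusted p under 0.05. All values are below 0, from -1.10 to -0.44 for Pon2 and from -1.41 to -0.51 for Pon3, and the filled points are the fits without degeneration 1.

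The order of Pon2 and Pon3 within a library depended on the length by which counts are divided. Per kb of all exons of the row, Pon3 was 2.04, 2.37 and 1.58 times as high as Pon2 in the wild type libraries. The ratio was 2.05, 1.64 and 1.55 in those of degeneration. Per kb of protein-coding transcripts the same ratio was 1.23, 1.43 and 0.953 for wild type, then 1.24, 0.990 and 0.935 for degeneration. Pon3 thus exceeded Pon2 in 6 of 6 libraries by row length and in 3 of 6 by coding transcript length. Pon1 was the lowest of the 3 on either scale, at 0 to 0.289 CPM per kb of its row, against 7.60 to 15.7 CPM per kb for Pon2 and 11.7 to 32.1 CPM per kb for Pon3.

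**Figure D3:**
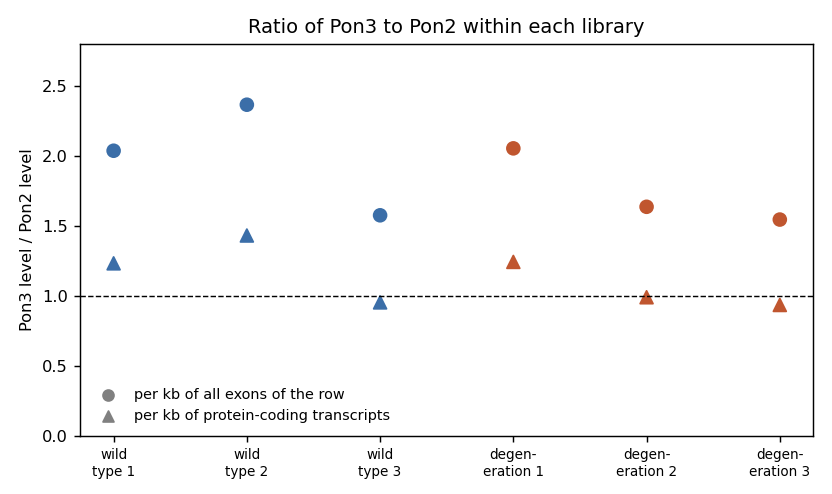
Ratio of the Pon3 level to the Pon2 level (y axis) within each library (x axis; blue, wild type; orange, degeneration), per kb of all exons of the row (circles) or of protein-coding transcripts (triangles); the dashed line marks equal levels. All circles lie above 1, from 1.55 to 2.37, and the triangles lie between 0.935 and 1.43.

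The division of the family's reads among its members, which does not depend on how libraries are scaled, overlapped between the groups. Pon2 made up 32.9%, 29.5% and 38.8% of the summed counts per kb of row in the wild type libraries, and 32.6%, 37.8% and 38.8% in those of degeneration. The mean share of Pon2 was 33.7 ± 4.74% in wild type and 36.4 ± 3.31% in degeneration (SD, n = 3 each; exact permutation test, two-sided, p = 0.6, adjusted over the 3 members 0.6). Pon3 made up 66.0 ± 4.36% and 63.0 ± 3.65% (exact permutation test, p = 0.4, adjusted 0.6). Pon1 made up 0.284 ± 0.491% and 0.631 ± 0.439% (exact permutation test, p = 0.5, adjusted 0.6). With 3 libraries against 3 this test cannot go below 0.1, so it could not have passed the threshold. By counts alone, Pon2 held 51.6%, 47.8% and 57.9% of the reads of Pon2 and Pon3 together in the wild type libraries, and 51.4%, 57.0% and 58.4% in those of degeneration. The exact binomial 95% intervals of wild type 2 (43.6% to 52.1%) and wild type 3 (53.6% to 62.1%) did not overlap, so 2 libraries of 1 group differed beyond counting error.

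Just past the 3′ end of Pon3 lies the row of Gm44250, an unclassified gene model on the same strand (chromosome 6, 5216258 to 5220486) that is 365 bases away. The wild type libraries gave it 129, 97.9 and 101 CPM, those of degeneration 115, 81.7 and 72.8 CPM. Its counts were 1.19, 1.22 and 1.48 times those of Pon3 for wild type and 1.44, 1.76 and 1.83 times for degeneration. The log2 fold change of Gm44250 was -0.44 ± 0.32 (SE; adjusted p = 0.474, edgeR), and -0.92 ± 0.16 without degeneration 1 (adjusted p = 0.00035). More reads thus fell on this adjacent stretch of 4229 bases than on the Pon3 row of 3385 bases in all 6 libraries. Per kb of row Gm44250 gave 30.5, 23.1 and 23.8 CPM for wild type, against 32.1, 23.7 and 20.1 CPM for Pon3. For degeneration it gave 27.1, 19.3 and 17.2 CPM per kb, against 23.4, 13.7 and 11.7 CPM for Pon3. On that scale it was below Pon3 in wild type 1 and 2.

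Among the 596 rows on their own exons with a mean of at least 1 CPM, Cav2, a caveolin, was the row most like Pon2 over the 6 libraries (Pearson's r of log2(CPM + 1) = 0.968, n = 6). It was followed by Fam110b, Gabrr1, Prrt4 and Frrs1l at 0.958 to 0.947. Cav2 measured 199, 137 and 168 CPM across the wild type libraries, then 158, 88.9 and 88.2 CPM across those of degeneration. The row most like Pon3 was Klf4, a zinc finger transcription factor, at 0.981, followed by Prrt4, Gm44250, Gm12381 and Calu at 0.969 to 0.961. Klf4 measured 149, 122 and 82.3 CPM across the wild type libraries, then 116, 35.9 and 31.7 CPM across those of degeneration. Pon2 and Pon3 correlated with each other at 0.901, which placed Pon3 at rank 15 for Pon2 and Pon2 at rank 40 for Pon3. These values are a description over the same 6 libraries, whose heart and kidney marker sums differ as given above, and for Pon1 the counts of 0 to 3 leave no pattern to compare.

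Of the genes on either side, some had degeneration 2 and 3 below every wild type library, as Pon2 and Pon3 did, and others did not. Ppp1r9a, which encodes neurabin and lies next to Pon1, measured 349, 414 and 458 CPM across the wild type libraries, then 406, 333 and 346 CPM across those of degeneration. Asb4, an ankyrin repeat protein gene next to Pon2, measured 23.4, 19.6 and 28.3 CPM across the wild type libraries, then 29.9, 4.06 and 4.17 CPM across those of degeneration. Pdk4, the pyruvate dehydrogenase kinase gene beyond it, measured 1258, 1021 and 295 CPM across the wild type libraries, then 474, 87.5 and 95.2 CPM across those of degeneration. In these 3 genes degeneration 2 and 3 were the lowest of the 6 libraries. For Ppp1r9a the gap was small, with 346 CPM in degeneration 3 against 349 CPM in wild type 1. Casd1, a sialic acid acetyltransferase gene, measured 108, 89.8 and 110 CPM across the wild type libraries, then 131, 137 and 136 CPM across those of degeneration. Bet1, a gene of vesicle transport, measured 39.7, 28.8 and 37.1 CPM across the wild type libraries, then 38.7, 68.7 and 70.5 CPM across those of degeneration. In Casd1 and Bet1 degeneration 2 and 3 were instead above every wild type library. Of 17 listed neighbours 16 were located and 12 tested by position. With 6 libraries 0 passed in edgeR, as did 0% of the 5434 loci tested. Without degeneration 1, 8 fell and 2 (Bet1 and Tfpi2) rose, where 26.2% of the 5969 loci fell and 26.8% rose. Their median log2 fold change was -0.65 with 6 libraries and -1.18 without degeneration 1, against 0.00 and 0.01 over all loci.

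**Figure D4:**
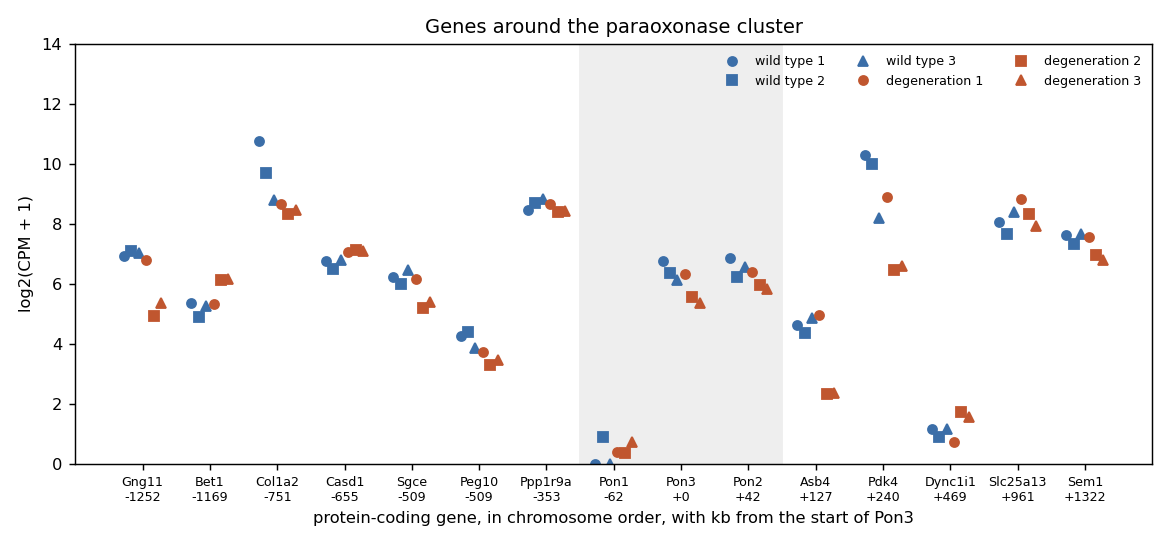
Level as log2(CPM + 1) (y axis) of located protein-coding genes around the paraoxonase cluster (x axis, in chromosome order, with the distance of its start from that of Pon3 in kb) in the 6 libraries; the grey band marks Pon1, Pon3 and Pon2. Pon1 lies near 0 between Ppp1r9a at 333 to 458 CPM and Pon3 at 39.8 to 108 CPM, and Asb4 is lowest in degeneration 2 and 3.

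Genes listed for a setting or a reaction related to those of the paraoxonases were mostly not located. With 6 libraries 0 members of the 4 lists below passed in edgeR. Of 29 genes of HDL and other lipoproteins, the carriers of Pon1 and Pon3, 7 were located and 6 tested (median log2 fold change -0.49). Without degeneration 1, Lrp2 and Cubn, endocytic receptors that take up HDL proteins among others, rose, and 3 members fell (Lrp1, Clu and Pltp), with a list median of -0.21; in that fit 26.8% of all loci rose and 26.2% fell, which is the share to set beside the counts of each list here. Lrp2 and Cubn are also listed as kidney tubule markers, and Lrp2 gave 0 to 1.89 CPM in 4 libraries against 2829 and 2030 CPM in degeneration 2 and 3. Of 26 enzymes that remove superoxide and peroxide, whose load Pon2 is studied for limiting, 8 were located and tested (median 0.81). Without degeneration 1, 5 of them rose (Prdx1, Txn1, Gclc, Gsr and Sod3) and 1 fell (Sod2), with a median of 1.02. Of 20 other esterases and ester or epoxide hydrolases 7 were located and 5 tested (median 0.43), of which 3 rose (Lypla1, Ces1d and Ephx1) and 1 fell (Ephx2) without degeneration 1 (median 0.50). Of 12 genes of coenzyme Q synthesis and the respiratory chain, a setting in the mitochondrial membrane with which Pon2 has been associated, 4 were located and tested (median -0.57). All 4 (Uqcrc1, Coq5, Coq3 and Cyc1) fell without degeneration 1 (median -1.37). Uqcrc1, a core subunit of complex III, measured 1214, 1211 and 1167 CPM across the wild type libraries, then 1684, 563 and 433 CPM across those of degeneration. Degeneration 1 was thus the highest library for Uqcrc1.

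Sums of markers of other cell types also differed between libraries, and their part in the paraoxonase values was not tested. The 7 located of 9 endothelial markers summed to 2247 to 2728 CPM for wild type, then 1758, 566 and 572 CPM for degeneration. The 6 located of 10 macrophage markers summed to 206 to 310 CPM for wild type, then 192, 174 and 172 CPM for degeneration. Members of this list differed. Csf1r gave 64.9 to 68.8 CPM for wild type, then 61.1, 114 and 96.8 CPM. Lyz2 gave 46.7 to 122 CPM, then 42.5, 6.66 and 10.3 CPM. For the 8 located of 10 fibroblast markers the sums were 1454 to 4024 CPM, then 1381, 958 and 1110 CPM. Red cell markers (4 located of 7) summed to 299 to 4306 CPM, then 1761, 302 and 246 CPM. Their members went in opposite directions. Hbb-bs gave 283 to 4245 CPM for wild type, then 1724, 135 and 105 CPM. Slc4a1 gave 4.24 to 8.95 CPM for wild type, then 3.46, 154 and 127 CPM. Notochord markers (4 located of 8, with Krt19 at 0 throughout) summed to 20.2 to 35.9 CPM, then 27.4, 479 and 487 CPM. In degeneration 2 and 3 this sum came from Cd24a (352 and 362 CPM) and Krt8 (127 and 125 CPM). Both libraries also had the high kidney tubule sum given above. Which cells gave the reads of Cd24a, Krt8 and Slc4a1 was not tested. Noto gave at most 0.321 CPM in any library. The 2 located of 6 adipocyte markers summed to at most 0.962 CPM. In degeneration 1, which is 1 library, the sums for endothelium, macrophages and fibroblasts were below every wild type library. The gap was small for macrophages (192 against 206 CPM) and fibroblasts (1381 against 1454 CPM). Not every marker followed its sum. Emcn (5.35 CPM), Mrc1 (39.0 CPM) and Dcn (250 CPM) of degeneration 1 were within the wild type range.

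**Figure D5:**
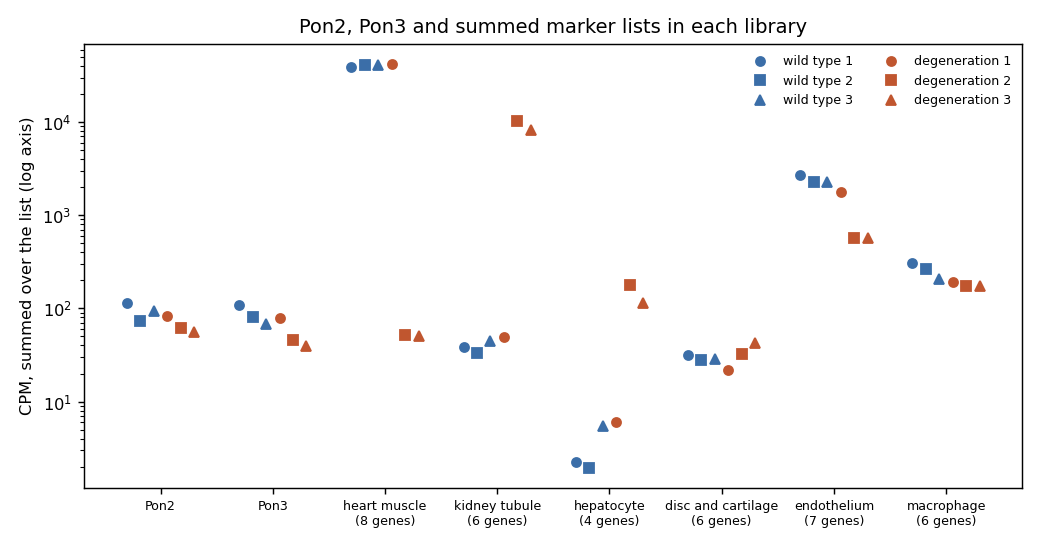
CPM (y axis, log scale) of Pon2, Pon3 and of located marker genes summed by list (x axis) in the 6 libraries (blue, wild type; orange, degeneration). Pon2 and Pon3 span 39.8 to 115 CPM, while the heart muscle sum goes from 38702 to 41832 CPM in 4 libraries to 52.4 and 51.0 CPM in degeneration 2 and 3, and the kidney tubule sum is highest in degeneration 2 and 3.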

How the data were processed

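Raw counts per gene name were used for 6 libraries, 3 per group. Per the file headers, the authors made these counts with featureCounts 2.0.1 from paired reads with both ends mapped, over exons summed by gene name, with no strand option; read pairs mapping to several places are left out by the tool's default. The aligner and build used are not given in the headers; Bowtie 0.12.2, mm8 and mm9 are named without a role, per the submitters' processing notes. A deposited series table has 12 value columns under names no sample label uses; it was not used, so no FPKM is given.

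Rows were placed on GENCODE M21 exons (GRCm38) with bedtools 2.31.1: on their own gene for at least 90% of their length, or else given the gene with at least 80% of the exon bases under them and at least 100 bases (10913 loci). The main test was edgeR 4.0.16 (R 4.3.3), quasi-likelihood, with TMM scaling, filterByExpr and Benjamini-Hochberg adjustment over all rows (for the lists, over all loci); the SE was derived from the test statistic. Shares were compared by an exact permutation test. Named genes were the 3 members, the 5 rows most like Pon2 and Pon3, and up to 4 members of each list by mean CPM. List members past the threshold are named as well. They, Gm44250, Cyp2e1, the neighbours given with values and other marker genes given singly were singled out after values were seen. A result for 1 lipoprotein gene is not reported here. The members and lists were chosen with earlier results of these data known. The scripts were tested on simulated data. Library totals of 3119215 to 4009562 counts set a floor of 3 counts; intervals cover counting error only. Alternatives were DESeq2 1.42.0, limma-trend (limma 3.58.1), other scalings and filters, the replicate number as a block, and each library left out.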

Additional observations from a re-analysis of the deposited data

How the results depend on the processing

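The direction of the Pon2 and Pon3 changes was the same in all 20 alternatives run. Of these, 15 left both genes above the threshold. The other 5 all leave out degeneration 1, where the label also splits the heart and kidney marker sums. Leaving out 1 library gave log2 fold changes from -1.10 to -0.46 for Pon2 and from -1.41 to -0.51 for Pon3, and from 0 to 8703 rows called, the highest without degeneration 1. Combined with that omission, settings chosen after seeing the data gave -1.09 and -1.39 for Pon2 and Pon3 on loci (3162 loci called), -0.68 and -0.99 with library totals only (10208 rows), -1.09 and -1.40 with DESeq2 size factors (8715 rows) and -0.90 and -1.21 on rows on their own exons (297 rows). DESeq2 with 6 libraries called 969 of 17476 rows, 859 higher and 110 lower, neither Pon2 nor Pon3 among them (adjusted p of 0.374 and 0.406). Over all alternatives the adjusted p ran from 0.00025 to 0.708 for Pon2 and from 6.9e-05 to 0.734 for Pon3. The replicate number as a block gave -0.70 ± 0.23 for Pon2 and -0.88 ± 0.26 for Pon3 (adjusted p of 0.386 for both, edgeR) and 0 rows called. Same-numbered libraries deviated from their group means with correlations of -0.08, 0.099 and -0.122, so the numbers were not treated as pairs. For the shares, the block gave the same differences (2.68 percentage points for Pon2, -3.03 for Pon3 and 0.347 for Pon1; sign-flip permutation p of at least 0.25, the smallest 3 pairs allow). Their sign was the same in 9 alternatives, from 0.540 to 5.22 points for Pon2. At 124 to 463 counts per library, counting error of Pon2 and Pon3 was smaller than their spread within wild type, whereas Pon1 could not be compared at this depth.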
